A study of Mus musculus with 14 samples.

Results

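This account follows 4 genes, Pdgfra, Pdgfrb, Fgfr1 and Igf1, across 14 single cells picked from adult mouse bone. They were chosen by name from the 9558 gene rows of the deposited table, and each name matched exactly 1 row. The cells came from adult C57BL/6 mice with the genotype Prrx1-CreERT;Tomato, in which tamoxifen activates a Cre recombinase made under the Prrx1 promoter and the recombined cells and their descendants turn red. All animals received tamoxifen at 2 mg per 30 g of body weight daily for 3 days, and there was no untreated or other group. Marrow was flushed out, the bone was digested, and red cells were sorted and picked one by one under a fluorescence microscope. The labels name no animal, so the 14 cells form 1 sample and no test between conditions or samples was possible. Spreads below are over these cells only. A red cell marks past or present use of the Prrx1 promoter, and the marking says nothing of whether a cell is a progenitor or a mature cell.

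Platelet-derived growth factors (PDGF), fibroblast growth factors (FGF) and insulin-like growth factors (IGF) are secreted proteins that act through receptor tyrosine kinases. Ligand binding activates paired receptor chains, which phosphorylate each other. The chains recruit adaptor proteins that feed the Ras-MAP kinase and PI3 kinase-Akt routes, while Sprouty proteins and dual-specificity phosphatases damp the signal. In bone, Pdgfra is widely used to mark mesenchymal stromal and progenitor cells, Pdgfrb is known from pericytes and perivascular stroma, Fgfr1 acts in cells of the osteoblast lineage, and IGF-1 is a local growth factor made by stromal and bone cells.

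Levels are log2(FPKM + 1), where FPKM is fragments per kilobase of transcript, scaled to 1000000 mapped fragments. The distribution was the same in every cell, as after quantile normalization, so a level ranks a gene within its cell. In each cell 5066 rows (53.0%) stood at 1 or more, the level used here to call a gene detected, and 1801 rows (18.8%) stood at 5 or more, called high below. The depth of the libraries is unknown because the table holds no counts. The cells were mixed in other respects. The mean of the 10 stromal matrix genes, among them the proteoglycan gene Dcn and the type I collagen genes, ran from 5.32 in cell 14 to 10.96 in cell 9. The mean of the 9 leukocyte genes ran from 1.78 in cell 4 to 8.83 in cell 11 and 9.76 in cell 14, and the mean of 8 neutrophil genes was 2.83 or more in every cell and highest, 10.18, in cell 6. The CD45 gene Ptprc, which marks leukocytes, stood at 8.31 in cell 11 and 6.51 in cell 14. Some results are therefore also given without cells 11 and 14, and the others are for all 14 cells.

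At the detection level of 1, Fgfr1 was the receptor found most widely, Pdgfra was found in most cells and Pdgfrb in few, while Igf1 had the largest SD of the 4 genes. Fgfr1 and Pdgfra tied at other levels, with 8 cells each at an FPKM of 10 and 14 each above 0. Fgfr1 was detected in 14 of 14 cells (100%, exact Clopper-Pearson 95% interval 76.8% to 100%), as were 15.8% of all rows. Pdgfra and Igf1 were each detected in 11 cells (78.6%, 49.2% to 95.3%), and 31.7% of all rows were detected in at least 11. Pdgfrb was detected in 4 cells (28.6%, 8.39% to 58.1%), and 34.9% of all rows were detected in at most 4. The intervals cover counting error only. Without cells 11 and 14, Fgfr1 was in 12 of 12 cells, Pdgfra and Igf1 in 10 each and Pdgfrb in 3. In order of their medians the genes were Fgfr1 (3.92), Pdgfra (3.84), Igf1 (2.29) and Pdgfrb (0.26). With the division by length undone the order was the same, at 5.03, 4.97, 3.28 and 0.32. This step could hardly change the order. The merged exons of Fgfr1, Pdgfra and Igf1 are close in length (9875, 10024 and 9904 bp), and those of Pdgfrb, already lowest, are shorter (5478 bp). For each pair of neighbours in this order, the difference within a cell had an SD over the cells that was larger than its median. Such an SD does not tell how steady the direction was. Pdgfra minus Igf1 had a median of -0.73 and an SD of 3.55, and Igf1 was the higher in 9 of the 14 cells although its median was lower. Igf1 minus Pdgfrb had a median of 1.83 and an SD of 2.60, with Igf1 higher in 13 of the 14 cells, so the direction was nearly constant. In cells 4 and 12, among the 13, both genes were below the detection level.

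**Figure D1:**
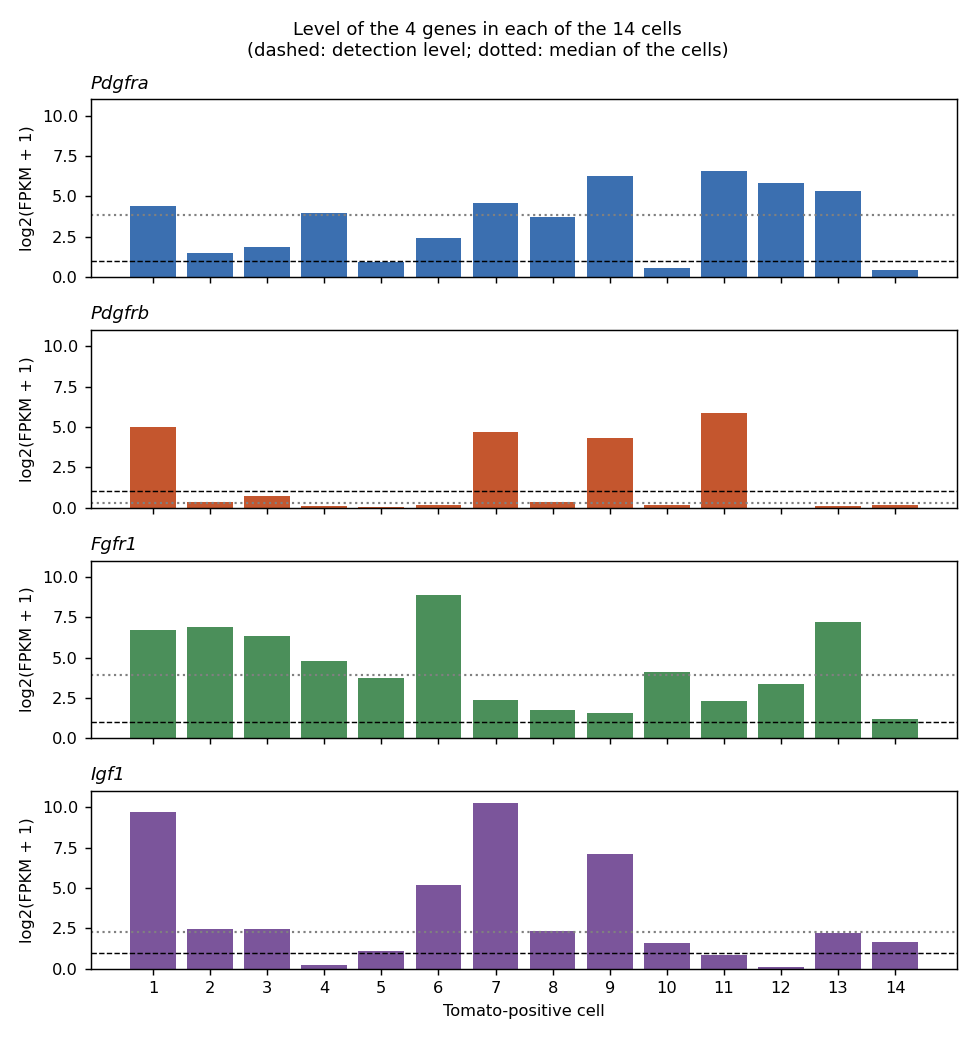
Level of Pdgfra, Pdgfrb, Fgfr1 and Igf1 in log2(FPKM + 1) on the vertical axis, in cells 1 to 14 on the horizontal axis. Each bar is 1 cell, the dashed line is the detection level of 1 and the dotted line the median of the 14 cells. Pdgfrb stands at 4.32 or more in cells 1, 7, 9 and 11 and at 0.73 or less in the other 10, and Igf1 is highest in cells 7, 1 and 9.

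Pdgfra encodes the alpha receptor for PDGF. The gene (ENSMUSG00000029231) lies on the plus strand of chromosome 5 from 75152292 to 75198215 (GRCm38). Over the 14 cells its level ran from 0.41 in cell 14 over a median of 3.84 to 6.55 in cell 11, with an SD of 2.16. Cells 11, 9, 12 and 13 were high, at 6.55, 6.23, 5.85 and 5.36. Cells 5, 10 and 14 were below the detection level, at 0.93, 0.53 and 0.41, while the lowest detected value was 1.48 in cell 2. The values spread over the range without a gap like that of Pdgfrb, so the number of cells with Pdgfra depends on the level asked for. An FPKM of 5 was reached by 8 cells, and the high level by 4. The SD was near the middle of the 448 rows that were detected in 11 cells, whose median SD was 2.07. Of the 3 cells without detected Pdgfra, cell 10 had the highest level of Spp1, and its osteoblast list mean was 6.22, close to the highest of all cells. Cell 14 had the lowest stromal matrix mean and the highest leukocyte mean. Cell 5 had the lowest osteoblast mean, 0.82. The highest osteoblast mean was in cell 13, where Pdgfra was high, at 5.36.

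Levels of Pdgfrb, the beta receptor, left a wide gap between an upper and a lower group of cells. The gene (ENSMUSG00000024620) lies on the plus strand of chromosome 18 from 61045150 to 61085061. Its levels in the upper group were 5.89, 4.97, 4.68 and 4.32, in cells 11, 1, 7 and 9. The next value was 0.73 in cell 3, and cell 12 was at 0. The median was 0.26 and the SD 2.26, above that of 88.4% of the 764 rows detected in 4 cells, whose median SD was 1.69. How many of those rows have such a gap was not computed. Any threshold between 0.73 and 4.32 therefore gives the same 4 cells, which also held at an FPKM of 5 and of 10. Pdgfra was detected in all 4 of these cells, and in cells 1, 7, 9 and 11 its levels were 4.42, 4.58, 6.23 and 6.55. Pdgfra without Pdgfrb was found in 7 cells, whereas Pdgfrb without Pdgfra was found in 0. Pdgfra was detected in 11 of 14 cells, and 31.7% of all rows were detected in at least 11. The share of rows detected in all 4 Pdgfrb cells was not computed, so these counts are not read as nesting. Within a cell the alpha receptor was above the beta receptor in 12 of 14 cells. The exceptions were cells 1 and 7, by at most 0.56 log2 units. In cells 5, 10 and 14, among the 12, both receptors were below the detection level.

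The 4 cells with Pdgfrb differed in other genes, though 3 of them, cells 9, 1 and 7, had the highest reticular stroma means (5.56, 4.92 and 4.64). Cells 9 and 7 were rich in Cxcl12 and Lepr, the chemokine and leptin receptor genes of reticular stroma, with Cxcl12 at 11.38 in cell 9 and 6.87 in cell 7, and Lepr at 6.12 and 9.97. Cell 1 had the highest level of Prrx1, 7.31, and of Kitl, the stem cell factor gene on the reticular list, 6.74, with Foxc1 at 5.24. Cxcl12 and Lepr stood at 3.86 and 3.85 in cell 1, beside medians of 3.92 and 3.02 over all cells. The osteoblast mean of cell 1 was 2.20. Runx2 and Spp1 of that list were at 5.20 and 7.21, while Sp7, Alpl, Dmp1, Phex and Smpd3 were below 1. In cells 9 and 7, Kitl was at 4.43 and 1.71 and Foxc1 at 0.31 and 0. High Lepr was also found without Pdgfrb. Lepr was highest of all in cell 2, at 10.56, and stood at 6.37 in cell 6. Pdgfrb was at 0.33 in cell 2 and 0.14 in cell 6. Cell 11 combined the highest levels of Pdgfra and Pdgfrb with the highest level of Ptprc. The part of the leukocyte RNA in the values of cell 11 was not tested. Of 10 pericyte and smooth muscle markers, 4 had a row. In the Pdgfrb cells the smooth muscle actin gene Acta2 was below 1, with values of 0.54, 0.72, 0.06 and 0.65 for cells 1, 7, 9 and 11. Cspg4, the pericyte proteoglycan NG2, was at 3.88 in cell 11 and at 0 in cells 1, 7 and 9. Mcam was at 2.02 in cell 9 and at most 0.09 in cells 1, 7 and 11. Tagln, a smooth muscle actin-binding protein gene, was at 5.90 in cell 1, its highest value in any cell, at 0.99 in cell 7 and at 0 in cells 9 and 11.

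Fgfr1 encodes the FGF receptor with the broadest role in mesenchyme. The gene (ENSMUSG00000031565) lies on the plus strand of chromosome 8 from 25513654 to 25575718. Its level ran from 1.21 in cell 14 over a median of 3.92 to 8.88 in cell 6, with an SD of 2.46. Cells 6, 13, 2, 1 and 3 were high, at 8.88, 7.20, 6.91, 6.69 and 6.32. Cells 14, 9 and 8 were lowest, at 1.21, 1.57 and 1.72. Detection of Fgfr1 in every cell rested on the low threshold: an FPKM of 5 was reached by 9 cells, and the high level by 5. The SD was above that of 82.5% of the 1506 rows detected in every cell, whose median SD was 1.85. The highest cells, 6 and 13, were among the 3 cells with the highest osteoblast list means (5.11 in cell 6, 6.22 in cell 13). Ifitm5, a gene of osteoblast membranes, had its highest values in these 3 cells, 11.72, 10.60 and 9.0 in the order of cells 6, 13 and 10. In cell 6, Runx2, Ibsp, Spp1, Phex and Smpd3 of the same list stood at 6.46, 7.25, 7.76, 3.38 and 8.30. The list genes Sp7, Alpl and Dmp1 were below 1 in cell 6, at 0.52, 0.61 and 0. Cell 6 also had the highest neutrophil mean, 10.18, ahead of 9.07 in cell 14 and 8.72 in cell 11, and the part of neutrophil RNA in its values was not tested. The remaining one of the osteoblast-rich cells, cell 10, had Fgfr1 at 4.10, near the median.

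Of the 5 cells with high Fgfr1 and the 4 with high Pdgfra, 1 cell, cell 13, was in both groups, counts too small to read as a separation. Fgfr1 exceeded Pdgfra in 9 cells and Pdgfra exceeded Fgfr1 in cells 7, 8, 9, 11 and 12. The difference, Fgfr1 minus Pdgfra, had a median of 1.32 and an SD of 3.56 and ran from -4.66 in cell 9 to 6.46 in cell 6. The medians of the 2 genes differed by far less than this spread. Across the 14 cells the Spearman correlation of the 2 genes was -0.13, too weak to describe an order. Without cells 11 and 14 it was -0.30, and with each cell left out in turn it ran from -0.41 to 0.011. The merged exons of the 2 genes are similar in length, 10024 bp for Pdgfra and 9875 bp for Fgfr1, against 5478 bp for Pdgfrb and 9904 bp for Igf1. Among the 3 receptors, Fgfr1 was highest in 9 cells, Pdgfra in 4 and Pdgfrb in 1, cell 7, where it stood at 4.68 beside 4.58 for Pdgfra. With the division by length undone, Pdgfra was highest in cell 7 too.

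**Figure D2:**
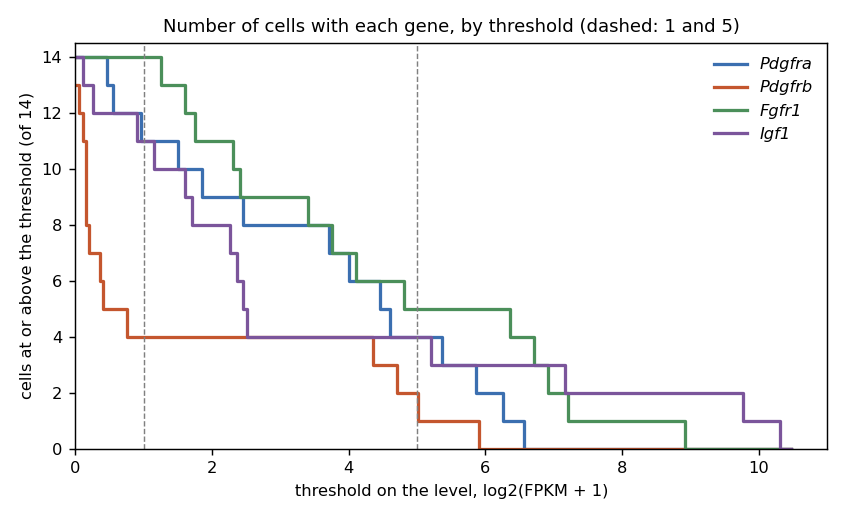
Number of the 14 cells (vertical axis) in which each gene reached the threshold on the horizontal axis, in log2(FPKM + 1). Each stepped line is 1 gene and the dashed lines mark thresholds of 1 and 5. The Pdgfrb line stays at 4 cells between 0.73 and 4.32, whereas the Pdgfra, Fgfr1 and Igf1 lines fall by steps, and the Igf1 line extends to 10.28.

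Igf1, the ligand among the 4 genes, was strongly uneven. The gene (ENSMUSG00000020053) lies on the plus strand of chromosome 10 from 87858265 to 87937042. Its level ran from 0.11 in cell 12 over a median of 2.29 to 10.28 in cell 7, with an SD of 3.37. Cells 7, 1, 9 and 6 were high, at 10.28, 9.74, 7.11 and 5.18. The next value was 2.48 in cell 2, so 4 cells held Igf1 at every threshold tried from an FPKM of 5 upwards. In cell 7 the value lay at the 99.0th percentile of all rows. The SD was above that of 98.2% of the 448 rows detected in 11 cells. Cells 11, 4 and 12 were below the detection level, at 0.88, 0.22 and 0.11.

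The 3 cells with the most Igf1 were 3 of the 4 cells with Pdgfrb. The same 3 cells were highest for Igfbp7 and for the reticular stroma mean. How many of all rows have their highest cells among these 4 was not computed, so the overlap is not read as a link between Igf1 and Pdgfrb. Igf1 was at 9.74, 10.28 and 7.11 in the Pdgfrb cells 1, 7 and 9 and at 0.88 in the Pdgfrb cell 11. In the 10 cells without Pdgfrb it ran from 0.11 to 5.18, so the groups overlapped through cell 11. The Spearman correlation of the 2 genes over the 14 cells was 0.59, and it was 0.86 without cells 11 and 14. When values below 1 were set to 0 it was 0.34 over the 14 cells. The cells share 1 normalization and 1 sample, and no p-value is given. For Pdgfra and Igf1 the correlation was 0.03, and for Fgfr1 and Igf1 it was 0.17. Without cells 11 and 14 these were 0.19 and 0.042.

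By detection the 14 cells fell into 5 combinations of the 4 genes. Pdgfra, Fgfr1 and Igf1 without Pdgfrb were found in 5 cells (2, 3, 6, 8 and 13). All 4 genes were found in 3 cells (1, 7 and 9), and Fgfr1 with Igf1 alone in another 3 (5, 10 and 14). Pdgfra with Fgfr1 alone was found in 2 cells (4 and 12), and the 3 receptors without Igf1 in 1 (cell 11). At the high level no cell held more than 2 of the 4 genes, and cells 4, 5, 8, 10 and 14 held 0.

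Among the PDGF genes, the related gene Pdgfrl, which encodes a PDGF receptor-like protein, was found in 13 cells and had a median of 4.83. Its 2 highest cells, cell 11 at 7.86 and cell 9 at 6.27, were also the highest for Pdgfra. The ligand gene Pdgfa, whose product binds the alpha receptor, was detected in 9 cells. Its high values were 7.31, 6.16 and 5.61, found in cells 5, 13 and 10. Cells 5 and 10 had Pdgfra below the detection level, whereas cell 13 had it at 5.36. Pdgfa and Pdgfra were detected together in 6 cells. Pdgfc was found in 4 cells, up to 5.18 in cell 12, and Pdgfd in cell 10 alone, at 5.23. Pdgfb had no row and was not analysed here.

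Fgfr1 was the one FGF receptor gene of the 4 measured that was detected in at least 7 cells. Fgfr2, detected in 3 cells, was high in cells 1 and 13 (6.78 and 6.41), both of which also had high Fgfr1. Fgfr3 was found in 4 cells, up to 3.99 in cell 13. Fgfrl1, a receptor-like protein without a kinase domain, was found in 3 cells, up to 6.10 in cell 3. Of the 6 ligand genes measured, Fgf7 was detected in 10 cells and was high in cells 9, 2 and 3, at 8.60, 8.32 and 7.61. Fgf18, detected in 5 cells, was high in cells 3, 7 and 10 (7.35, 6.63 and 5.71). Each of the other 4 was detected in 1 or 2 cells. They included the hormone-like gene Fgf21 at 9.39 in cell 13 and Fgf2 at 5.14 in cell 2. Of the 8 heparan sulfate co-receptor genes, 4 (50%) were found in 7 cells or more, close to the 51.7% of all rows. Sdc2, the syndecan-2 gene, was detected in all 14 with a median of 6.55 and its highest value, 9.35, in cell 6.

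**Figure D3:**
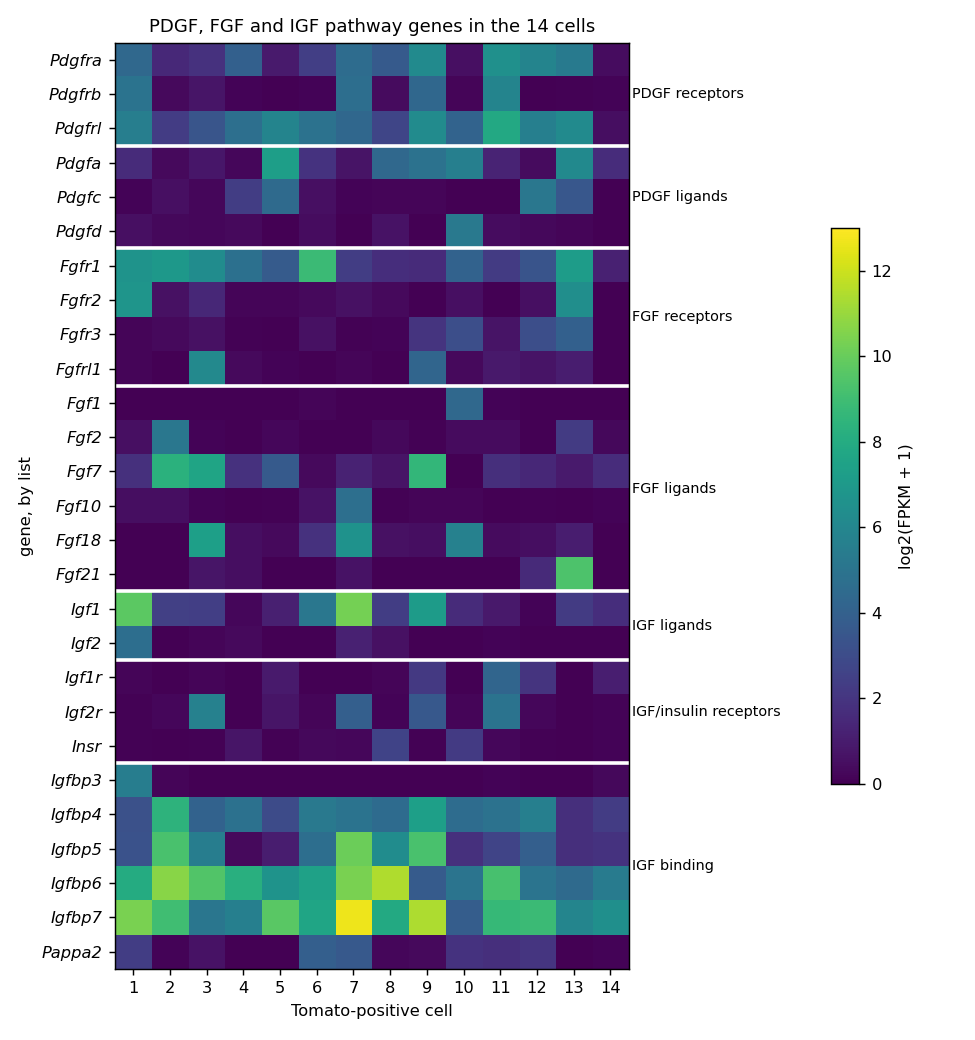
Level of the measured PDGF, FGF and IGF pathway genes (rows, grouped by list) in cells 1 to 14 (columns), with colour from 0 to 13 in log2(FPKM + 1). Igfbp4, Igfbp6 and Igfbp7 are detected in all 14 cells, while the ligand genes and the genes for IGF and insulin receptors are high in few.

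Of the 3 genes for IGF and insulin receptors, 0 were found in 7 cells or more. Igf1r, which encodes the receptor for IGF-1, was found in 4 cells, up to 4.24 in cell 11, where Igf1 itself was below 1. Igf1 and Igf1r were detected together in 2 cells, 9 and 14. In cells 7 and 1, the highest for Igf1, Igf1r was at 0 and 0.20. Igf2r, the clearance receptor for IGF-2, was detected in 4 cells and the insulin receptor gene Insr in 2. Igf2, the other ligand gene, was found in 2 cells, up to 4.67 in cell 1. Of the 6 measured genes for IGF binding proteins and their proteases, 4 (66.7%) reached the detection level in 7 cells or more, against 51.7% of all rows. Igfbp7 had a median of 8.31, Igfbp6 of 7.74 and Igfbp4 of 4.72, each in all 14 cells. Igfbp7 was highest in the 3 cells that were highest for Igf1, with 12.65, 11.40 and 10.41 for cells 7, 9 and 1. Igfbp5 was detected in 13 cells and was at 10.07 in cell 7 and 9.28 in cell 9, but at 3.28 in cell 1.

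The 12 pathway lists were also counted together. Without the 4 genes described, the 12 pathway lists hold 159 genes, of which 106 had a row. The number detected in 7 cells or more was 45 (42.5%), against 51.7% of all rows. With any value above 0 counted, it was 92, against 86.8% of all rows. It was 29 for an FPKM of 5 (28.7% of all rows), 21 for an FPKM of 10 (21.5%) and 10 for the high level (13.4%). Their median level had a median of 0.64, against 0.96 over all rows. A level of 5 in some cell was reached by 70 of the 106, and by 71.1% of all rows. Among 37 intracellular adaptors and kinases, 19 (51.4%) were that widely detected, close to the share of all rows. They included the Ras gene Nras in 14 cells and Stat3 in 13 with a median of 5.19. Grb2, which links receptors to Ras, was detected in 7. The FGF adaptor gene Frs2 was detected in 3 cells, and Plcg1, another direct partner of receptors, in 3. Of the 11 other receptor tyrosine kinase genes with a row, 4 (36.4%) were found in 7 cells or more. These were Axl in 13, the collagen receptor gene Ddr2 in 12, Ryk in 9 and Egfr in 7, and 28 of the 39 genes fixed had no row.

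Of 19 negative regulators, 7 (36.8%) were found in 7 cells or more, against 51.7% of all rows. Errfi1, Socs2, Socs3 and Ptpn12 were detected in all 14, with medians of 5.39, 4.52, 5.26 and 2.93. Spry1, a Sprouty gene, was detected in 5 cells. They were cells 1, 9, 11, 13 and 12, with 6.01, 5.23, 5.18, 3.51 and 1.11. Pdgfra was at 4.42 or more in all 5, and 3 of them were cells with Pdgfrb. Spry2, found in 11 cells, was highest in cells 3 and 2, at 7.62 and 6.11, which had high Fgfr1. The other cells with high Fgfr1, cells 6, 13 and 1, had Spry2 at 2.23, 0.77 and 1.26. Dusp6, a phosphatase gene induced by ERK signalling, was detected in 6 cells, with its highest values, 6.86 and 6.84, in cells 1 and 12. Of 8 measured transcriptional targets, 4 (50%) were found this widely, among them Fos in 14 with a median of 9.70 and Myc in 12 with a median of 6.78.

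The 4 genes were set beside the marker lists by their Spearman correlation over the 14 cells, as a description. With the mean of the 4 measured reticular stroma genes (Cxcl12, Lepr, Kitl and Foxc1) the correlation was 0.68 for Igf1, 0.57 for Pdgfrb, 0.49 for Pdgfra and 0.11 for Fgfr1. The 3 cells with the highest reticular means, cells 9, 1 and 7 at 5.56, 4.92 and 4.64, were the 3 cells highest for Igf1. With the stromal matrix mean it was 0.63 for Pdgfra, 0.42 for Igf1, 0.23 for Fgfr1 and 0.21 for Pdgfrb. With each cell left out in turn these ran from 0.53 to 0.73, from 0.29 to 0.54, from 0.038 to 0.47 and from 0.066 to 0.35, and the ranges for Igf1, Fgfr1 and Pdgfrb overlapped. With the osteoblast mean it was 0.42 for Fgfr1 and between 0.29 and 0.38 for the others. Pearson's correlation was 0.014 for Pdgfra, -0.12 for Pdgfrb and 0.030 for Igf1, so the osteoblast values of these 3 genes depend on the measure. With the leukocyte mean it was -0.31 for Fgfr1 and between 0.11 and 0.28 for the others. The value for Fgfr1 rested on cells 11 and 14: without them it was 0.021. Over the same 12 cells the correlation of Igf1 with the leukocyte mean was 0.41, against 0.14.

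**Figure D4:**
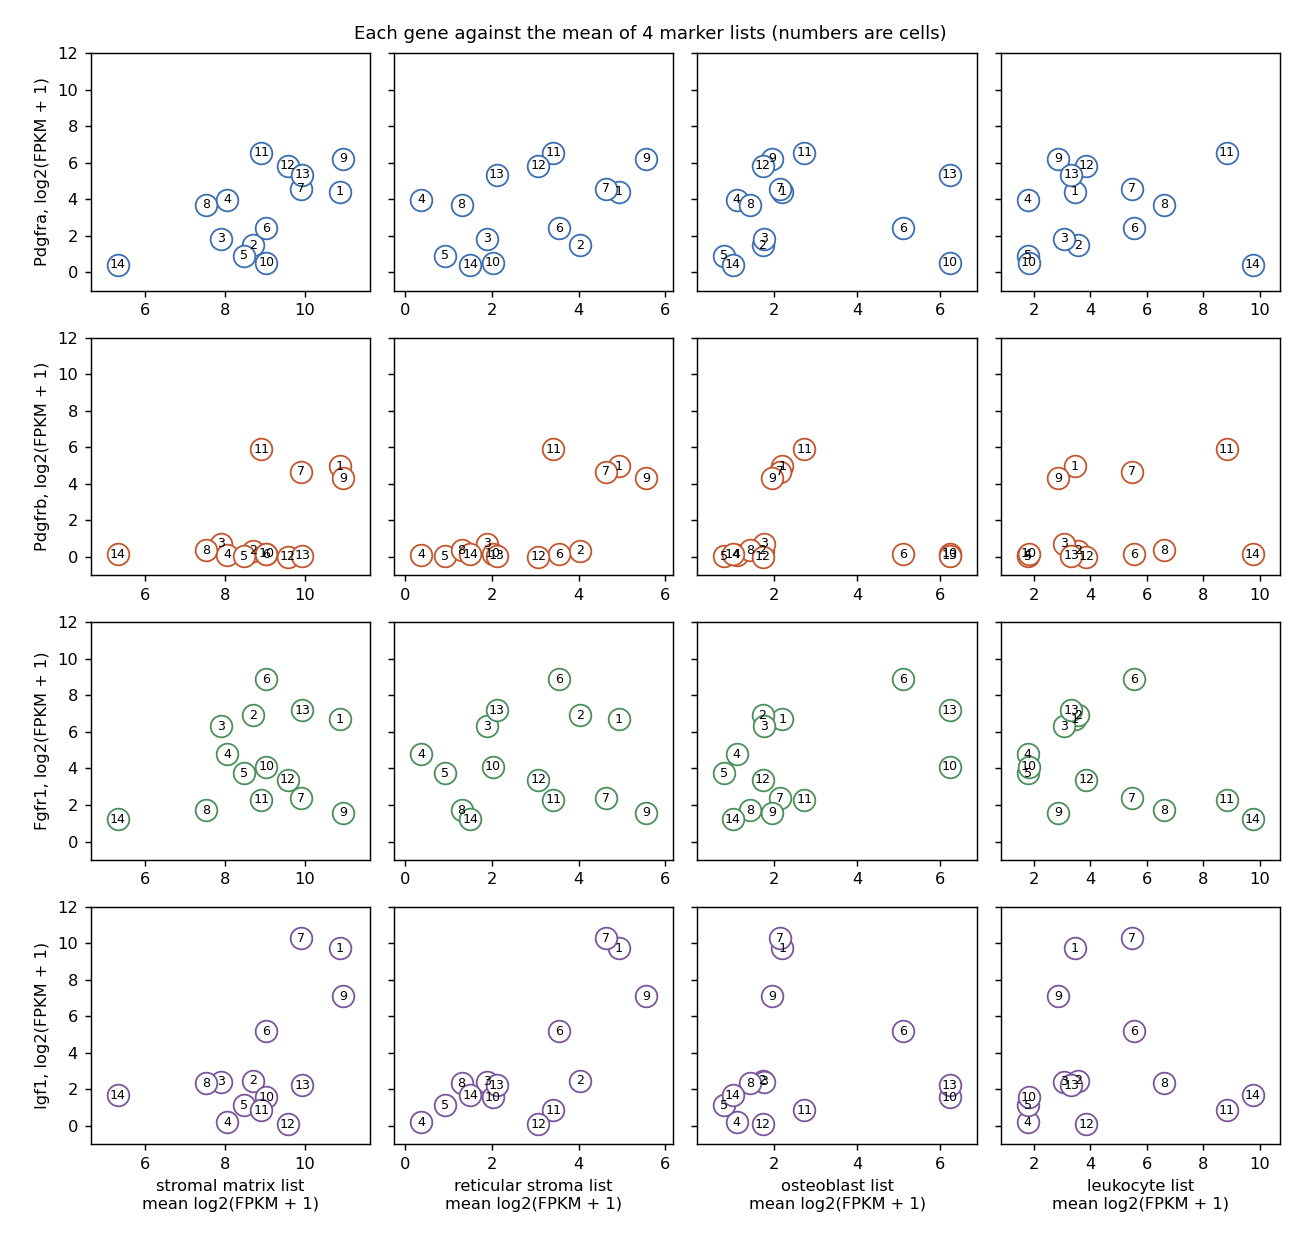
Level of each gene (vertical axes, log2(FPKM + 1)) against the mean level of the stromal matrix, reticular stroma, osteoblast and leukocyte lists (horizontal axes). Each circle is 1 cell with its number. Cells 1, 7 and 9 lie at the upper right for Igf1 against reticular stroma, and cell 11 is highest for Pdgfra and Pdgfrb at a leukocyte mean of 8.83.

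The rows most like each gene were ranked by Spearman correlation over the 14 cells, among about 6211 other rows detected in at least 5 cells. With so many rows and so few cells, high values at the top of the ranking are a matter of course, and the order is a description only. Nearest to Pdgfra were Phf11d (0.86), Spry1 (0.82), Rac1, a small GTPase gene (0.80), Dld (0.79) and Cpt1a (0.79), the gene for fatty acid entry into mitochondria. Nearest to Pdgfrb were Irs2, an adaptor of the insulin and IGF receptors (0.83), Cenpf (0.82), Bloc1s4 (0.82), Tiparp (0.81) and N4bp2 (0.77). Irs2 was highest in cells 11 and 1, at 5.23 and 3.95. The order for Pdgfrb rests on values below 1 in 10 of the cells: with those set to 0, the 5 genes took ranks 16, 32, 127, 56 and 110. Nearest to Fgfr1 were Npepps (0.85), Nudt16 (0.85), Snhg1 (0.80), Kctd3 (0.75) and Tm9sf1 (0.75). Nearest to Igf1 were Fah, the last enzyme of tyrosine breakdown (0.90), Hscb (0.85), Vipr2, a receptor for vasoactive intestinal peptide (0.85), Adamts10 (0.84) and Mllt10 (0.83). With values below 1 set to 0, these 5 took ranks 8, 1, 4, 29 and 55 for Igf1. The genes nearest to Pdgfra and to Fgfr1 then stayed at rank 8 or better. At the other end stood Msra (-0.80) and Odf2 (-0.80) for Pdgfra, and Cstf3 (-0.85) and Zfp106 (-0.83) for Pdgfrb. For Fgfr1 they were Sft2d1 (-0.80) and Sat1 (-0.78), and for Igf1 the mitochondrial pyruvate carrier gene Mpc1 (-0.90) and Sypl (-0.86).

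The cells also differed in which rows were at 0, in a way that the labels do not explain. The cells were clustered on the presence of 5058 other rows, with the number of sets fixed at 2 beforehand. Cells 3, 4, 11, 12 and 13 formed one set and the remaining 9 cells another. Median correlations of presence were 0.25 within the sets and 0.08 between them. The sets were drawn by these same correlations, so a higher value within than between follows from the clustering. The lowest value within a set, 0.162, was below the highest between the sets, 0.165, so the sets were not fully apart. In the larger set Igf1 was detected in 9 of 9 cells, from 1.13 to 10.28, and in the smaller in 2 of 5, from 0.11 to 2.44. Pdgfra was detected in 6 of 9 and in 5 of 5, with medians of 2.42 and 5.36. Pdgfrb was detected in 3 of 9 and in 1 of 5, and Fgfr1 in all cells of both sets. The ranges of the sets overlapped for each of the 4 genes. How many of all rows differ as much in detection between the sets was not computed. The sets come from the values and not from the labels, and the part of library preparation in them was not tested.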

How the data were processed

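Per the labels' protocols, the RNA of 14 single cells was made into libraries with SMART-Seq v4 3' and Nextera XT kits. The submitters' processing notes name TopHat2, Cufflinks and the build GRCm38, without versions. The deposited values are on a log2 scale and were read as log2(FPKM + 1) after quantile normalization, a reading that rests on the values, because the labels and the header record neither step. The sources used here do not say how the 9558 rows were selected. All value columns matched a sample by title, and 0 were left over.

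FPKM divides by transcript length although a 3' kit reads transcript ends, so long genes are understated. Positions and merged exon lengths came from GENCODE M21 (GRCm38), which matched 9535 of 9549 gene IDs. For 16 repeated symbols the first row was used. Antisense genes overlap Pdgfra, Fgfr1 and Igf1, and strand use in the counting is not stated.

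Counts, medians, SDs, exact Clopper-Pearson intervals and correlations were computed with Python 3.11.15, pandas 2.3.3 and scipy 1.17.1. The code of the likeness ranking was tested on shuffled values with planted rows that closely followed the gene. That test checks the sorting only, and not how reliable a ranking over so few cells is. Members and gene lists were chosen with earlier results of these data known. Named are the 4 genes, list genes detected in at least 7 cells or reaching 5, and for each of the 4 genes the 5 nearest and 2 opposite rows. Some genes below these limits are named with their values. They were chosen after their values were seen.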

Additional observations from a re-analysis of the deposited data

How the results depend on the processing

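No paired analysis was possible because all cells belong to 1 group. Counts of cells follow the threshold. Above 0, cells with Pdgfra, Pdgfrb and Igf1 numbered 14, 13 and 14, and cells with all 3 receptors, all 4 genes, Pdgfra without Pdgfrb, Pdgfra with Igf1 and Pdgfra with Fgfr1 numbered 13, 13, 1, 14 and 14. At an FPKM of 5, Fgfr1 was in 9 cells and Igf1 in 4, all 3 receptors in 1, Pdgfra with Igf1 in 3 and Pdgfra with Fgfr1 in 4. At an FPKM of 10 these were 8, 4, 1, 3 and 3. At a log2 value of 5, Pdgfra, Pdgfrb, Fgfr1 and Igf1 were in 4, 1, 5 and 4 cells, all 3 receptors and all 4 genes in 0, Pdgfra without Pdgfrb in 3, and Pdgfra with Igf1 and with Fgfr1 in 1 each. The main counts were 11, 4, 14 and 11, then 4, 3, 7, 8 and 11. Pathway genes detected in at least 7 cells numbered 45, and with the same 4 thresholds in that order 92, 29, 21 and 10. A pseudocount of 10 brought the medians of Pdgfra and Fgfr1 to 1.23 and 1.27. Undoing the length division left Pdgfrb highest of the receptors in 0 cells. Pearson correlations were 0.014 for Pdgfra, -0.12 for Pdgfrb and 0.030 for Igf1 with the osteoblast list, 0.52 for Pdgfrb and 0.57 for Igf1 with the stromal matrix list, and 0.70 for Pdgfrb with the reticular list. Without cells 11 and 14, Spearman correlations were 0.19 for Pdgfra with the osteoblast list, 0.014 for Fgfr1 with the stromal matrix list, and 0.021 for Fgfr1 and 0.41 for Igf1 with the leukocyte list. With each cell left out in turn the medians ran from 3.71 to 3.98 for Pdgfra, 0.19 to 0.33 for Pdgfrb, 3.74 to 4.10 for Fgfr1 and 2.24 to 2.34 for Igf1. The causes of these shifts were not tested. Setting values below 1 to 0 was an alternative chosen after seeing the data. Depth limits cannot be given, since the table holds no counts.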
